A study of Mus musculus with 12 samples.

Results

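The glutathione, peroxiredoxin and NRF2 antioxidant genes of the mouse liver were taken by symbol from the table of ribosome footprints: the cytosolic and mitochondrial glutathione transferases, the glutathione peroxidases Gpx1 to Gpx8, the peroxiredoxins Prdx1 to Prdx6, both thioredoxins, the 3 thioredoxin reductases, the 3 superoxide dismutases, and Cat, Nqo1, Gclc, Gclm, Gsr, Gss, Hmox1, Srxn1, Nfe2l2 and Keap1. The symbols matched 54 of 25029 genes. The symbols and not measured values define the set, though it was proposed with earlier results of these data known. The footprints came from livers of male C57BL/6 mice aged 16 weeks. All had received a high-fat diet for 8 weeks, either alone (HFD, n = 3 libraries) or with lycopene (LYC, n = 3 libraries), a red carotenoid of tomato. The group without lycopene also ate the high-fat diet, so no value below compares with a normal diet. The sample titles and the paper name the lycopene feed, whereas for LYC the label on treatment mentions no more than the high-fat diet. According to the labels, material of the groups was pooled ahead of library preparation. It is therefore not certain that each library stands for 1 mouse, and the p-values measure the spread between these libraries.

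Glutathione is a small thiol made from glutamate, cysteine and glycine. Glutathione transferases couple it to reactive chemicals, glutathione peroxidases use it to reduce peroxides, and glutathione reductase restores it. Peroxiredoxins remove peroxides with the help of thioredoxin, and superoxide dismutases and catalase dispose of superoxide and hydrogen peroxide. NRF2, encoded by Nfe2l2, is the transcription factor that switches on many of these genes under oxidative or chemical stress, and KEAP1 holds it at a low level. The liver makes large amounts of most of these enzymes.

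Ribo-seq sequences the RNA pieces that ribosomes shield from nuclease, and its reads per gene are footprint counts. The authors deposited RPKM, reads scaled to gene length and library total, and the whole reads behind each RPKM were recovered from the step that 1 read makes. The libraries held 834410 to 4405538 reads in HFD and 311049 to 412116 reads in LYC, so HFD was sequenced 6.91 times deeper by the median total. A single read on 1 kb of transcript gave 0.227 to 1.20 RPKM in HFD but 2.43 to 3.21 RPKM in LYC, so a low gene was measured more coarsely in LYC. Levels are given as scaled RPKM, the RPKM divided by a factor that aligns the libraries on the bulk of their genes (trimmed mean of M-values, TMM). The marker genes of hepatocytes, among them Alb and Ttr, summed to 30166 to 41345 scaled RPKM in the 6 libraries, with all 8 markers present, as a liver sample should show. A second table, labelled mRNA, holds nearly the same numbers for most genes, with the HFD libraries in another order (values near the end). The files alone do not settle which kind of library either table came from, so footprint below means the table labelled as such. In whole liver, fewer cells of a type and less RNA in each cell cannot be told apart.

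Of the 54 genes, 52 had a read in at least 1 library. Gpx2 and Gstt4 were listed at 0 in all 6. After a filter on low reads, 38 were tested among 5738 genes. Not tested were Gpx2, Gpx3, Gpx5, Gpx6, Gpx7, Gpx8, Gsta1, Gsta2, Gstm3, Gstm5, Gsto2, Gstp2, Gstt4, Hmox1, Nqo1 and Txnrd3. A call needed a log2 fold change beyond 1 in size together with p under 0.01 before adjustment, in limma's moderated test, two-sided, on log2(scaled RPKM + 1). Because 1 was added, the fold changes of low genes are understated. The p-values printed beside single genes are those adjusted over all 5738 genes (Benjamini-Hochberg), which do not decide a call.

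The antioxidant genes did not move as a block. In LYC against HFD, 4 of the 38 tested genes rose (Gstp3, Prdx1, Gstt1 and Gsta3) and 3 fell (Sod3, Gstt3 and Gpx4). These 7 are 18.4% of those tested, beside 13.4% of all genes tested, of which 6.92% rose and 6.45% fell. Gstp3 reached the read filter only in LYC libraries and Sod3 only in HFD libraries, so the filter itself favoured a difference in these 2 and their calls carry less weight. Among genes that reached it in both groups, a count added after seeing the data, 5 of 36 were called (13.9%), beside 10.1% of 5359 genes. For this count 1 library of a group was enough, and of the LYC libraries 2 reached the filter for Gstt3 and 1 for Srxn1. An adjusted p below 0.05 (limma, Benjamini-Hochberg) was reached by 7 of the 38, beside 11.6% of all genes tested. The log2 fold change was above 0 for 25 and below 0 for 13 of the 38, so 65.8% were above 0, beside 44.8% of all genes tested. The median log2 fold change of the 38 was 0.25, beside -0.10 over all genes tested. For 20 of the 38 the absolute log2 fold change was under 0.5. In 18 of the 38 all libraries of 1 group lay above all of the other, of which 9 were higher and 9 lower in LYC. That is 47.4%, beside 37.8% of all genes tested, 18.6% with LYC higher and 19.2% with LYC lower.

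**Figure D1:**
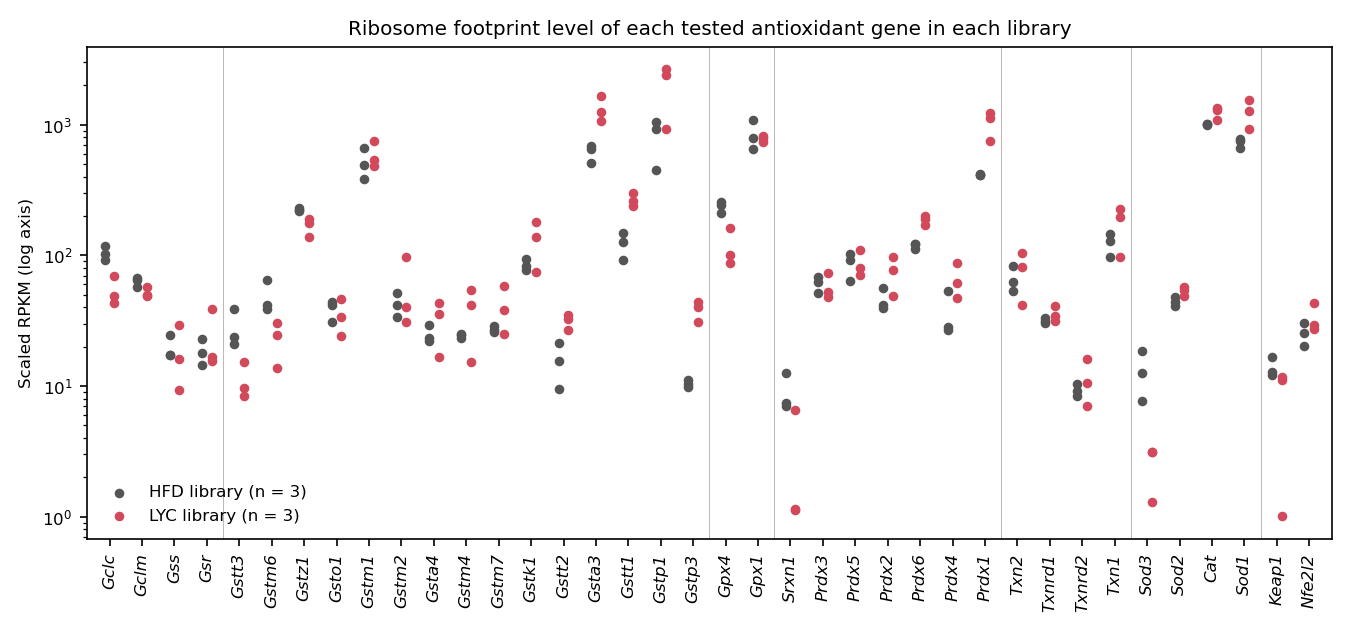
Scaled RPKM (log axis) of the 38 tested antioxidant genes, grouped by family, in each of the 3 HFD libraries (grey) and 3 LYC libraries (red). Gstp3, Prdx1, Gstt1 and Gsta3 lie higher in all LYC libraries, and Sod3, Gstt3 and Gpx4 lower, while 20 of the 38 genes overlap between the groups.

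A few abundant enzymes carried most of the footprints. By mean scaled RPKM over the 6 libraries the highest were Gstp1 (1400), Cat (1126), Sod1 (991), Gsta3 (971), Gpx1 (815), Prdx1 (726) and Gstm1 (553). RPKM is a level per length, so these genes can be ranked, but their libraries overlap between neighbours in that order. The order differs by group: in HFD the means of Cat (1010) and Gpx1 (845) lay above that of Gstp1 (811), and in LYC Gstp1 was highest (1989). These 7 genes held 71.5% to 74.3% of the summed level of the 54 genes in HFD and 76% to 83.2% in LYC.

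The transferases were the largest family, with 22 genes of which 21 had a read and 15 were tested. Of the 15, 3 rose and 1 fell (26.7%, beside 13.4% of all genes tested), and 11 had a log2 fold change above 0 (73.3%, beside 44.8%). Without Gstp3, which passed the read filter only through LYC, 3 of 14 were called (21.4%), beside 10.1% of genes that reached it in both groups. Their summed level was 2674, 2561 and 2734 scaled RPKM in HFD and 5538, 5327 and 3520 in LYC, so every LYC library lay above every HFD library. The sum was 1.81-fold higher in LYC (exact permutation p = 0.1, two-sided, the smallest that 3 against 3 allows). Most of this rise lay in Gstp1 and Gsta3. The mean sum went from 2656 in HFD to 4795 in LYC, Gstp1 from 811 to 1989 and Gsta3 from 616 to 1326. The sum of the family without these genes was not tested. As a share of all RPKM without small non-coding RNA the transferases overlapped, at 0.647%, 0.77% and 0.71% in HFD and 0.897%, 1.08% and 0.739% in LYC (exact permutation p = 0.2).

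Gstp3 (chr19:4057477-4059569, minus strand, GRCm38 as all positions here) encodes a pi-class transferase and gave the largest rise. It stood at 10.4, 11.1 and 9.82 scaled RPKM in HFD1, HFD2 and HFD3 and at 31.1, 40.3 and 44.3 in LYC1, LYC2 and LYC3. The 3 HFD libraries were nearly level and all LYC libraries were far above them. Its log2 fold change was 1.78 (SE 0.26, adjusted p = 0.00547, limma). The gene is low and passed the read filter only through LYC, with 6 to 44 reads in an HFD library and 7 to 12 in a LYC library. From the pooled 71 and 28 reads the LYC to HFD ratio was 3.62, with an exact interval of 2.25 to 5.68 at 95% that covers counting error only.

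Gstp1, the main pi-class enzyme of mouse liver, was not called by limma on all libraries. It stood at 934, 450 and 1049 scaled RPKM in HFD and at 2651, 2392 and 923 in LYC. LYC1 and LYC2 were above every HFD library, whereas LYC3 lay among the HFD libraries. On the log2 scale the change was 1.24 (SE 0.47, adjusted p = 0.123, limma), and without 1 library it lay between 0.84 (without HFD2) and 1.71 (without LYC3), with a call only in the latter. With the trend on gene length removed it was 0.80. On the recovered reads edgeR (1.30, adjusted p = 0.0333) and DESeq2 (1.30) also called it. In male mouse liver Gstp1 is known to be an abundant transferase. Without Gstp1 the summed level of the other 53 was 1.38-fold higher in LYC, beside 1.51-fold with it.

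The near-identical copy Gstp2 had 4 and 3 reads in HFD1 and HFD2 and 0 in the other 4 libraries. The coding sequences of Gstp1 and Gstp2 differ at 12 of 630 bases (98.1% identity), while Gstp3 differs from Gstp1 at 178 (71.8% identity). Of all windows of 28 bases in the coding sequence, about the length of a footprint, 78.6% of those of Gstp1 occur also in Gstp2. Untranslated sequence was not covered. Only 1.33% of those of Gstp3 occur in another gene. Coding bases 301 to 360 were chosen because Gstp3 differs most from Gstp1 there, and they also hold 5 of the 12 differences between Gstp1 and Gstp2, with capitals marking bases that differ from Gstp1. They are spliced sequence of the minus strand of GRCm38 and span an intron (Gstp1 at chr19:4035908-4036723, Gstp2 at chr19:4040792-4041017, Gstp3 at chr19:4057972-4058121), with 5 differences in Gstp2 and 38 in Gstp3.
Gstp1: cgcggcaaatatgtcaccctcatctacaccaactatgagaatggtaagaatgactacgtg
Gstp2: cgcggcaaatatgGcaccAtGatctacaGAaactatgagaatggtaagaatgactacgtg
Gstp3: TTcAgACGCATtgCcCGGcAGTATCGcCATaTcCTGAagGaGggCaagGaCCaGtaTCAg
The Gstp1 level is thus best read as the pair Gstp1 and Gstp2.

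Gsta3 (chr1:21240589-21265661, plus strand), an alpha-class enzyme that also takes part in steroid metabolism, stood at 648, 687 and 513 scaled RPKM in HFD and at 1647, 1257 and 1074 in LYC. All LYC libraries were above all HFD libraries. On the log2 scale the rise was 1.09 (SE 0.26, adjusted p = 0.0316, limma). The gene was not called without HFD3 (0.94) or without LYC1 (0.93), nor without TMM (0.81), without the read filter (0.94) or with the trend on gene length removed (0.89). Gsta4, which clears lipid peroxidation products such as 4-hydroxynonenal, overlapped between the groups with a log2 fold change of 0.25 (SE 0.37, adjusted p = 0.677, limma). Gsta1 and Gsta2 had 0 to 11 reads in a library and share 96.6% and 90.6% of their coding 28-base windows with other genes, so neither was measured apart.

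The theta class moved both ways within a cluster of neighbouring genes on chromosome 10. Gstt1 (chr10:75783813-75798584, minus strand), which acts on small halogenated chemicals, stood at 148, 126 and 91.9 scaled RPKM in HFD and at 300, 237 and 261 in LYC, with no overlap. Its log2 fold change was 1.14 (SE 0.25, adjusted p = 0.0244, limma), and it was 0.92 and not called without HFD3. The call was also lost without TMM (0.85), without the read filter (0.99) and with the trend on gene length removed (0.77). Gstt2 stood higher in every LYC library too, but its log2 fold change of 1.04 (SE 0.33, adjusted p = 0.0758, limma) did not pass the limit on p. Leaving out 1 library gave Gstt2 0.73 to 1.26, with a call only without HFD3.

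Gstt3 (chr10:75774115-75781414, minus strand) fell. It stood at 23.7, 39.0 and 20.95 scaled RPKM in HFD and at 8.37, 15.2 and 9.73 in LYC, again with no overlap. The log2 fold change was -1.24 (SE 0.35, adjusted p = 0.0517, limma). Only 5, 9 and 7 reads lie behind the LYC values, and the call was lost on p, with log2 fold changes still of -1.35, -1.002, -1.08 and -1.19, when HFD1, HFD2, LYC1 or LYC3 was left out. Of its 28-base windows 71.6% are shared with Gm20441, so the level may include reads of that gene. Gstt1 and Gstt3 share 1.88% of the windows of Gstt1.

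The mu class had no called gene among its 5 tested, and 1 of them, Gstm6, did not overlap between the groups (20%, beside 37.8% of all genes tested). Gstm1, its most abundant member, stood at 387, 668 and 495 scaled RPKM in HFD and at 480, 751 and 535 in LYC, and the groups lay across each other. Its log2 fold change was 0.20 (SE 0.29, adjusted p = 0.68, limma). Gstm6 was lower in every LYC library, with a log2 fold change of -1.08 (SE 0.35, adjusted p = 0.0822, limma) that missed the limit on p. Leaving out 1 library gave Gstm6 -1.30 to -0.77, with a call only without LYC2. It was also called without TMM, without the read filter and with the trend on gene length removed. Gstm2, Gstm4 and Gstm7 had log2 fold changes of 0.24, 0.40 and 0.49 and overlapped. The summed level of the mu class was 1.12-fold higher in LYC (exact permutation p = 0.5), beside 2.13-fold for alpha (p = 0.1), 1.87-fold for theta (p = 0.1) and 2.46-fold for pi (p = 0.2).

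The remaining classes hold enzymes with roles of their own. Gstk1, the mitochondrial and peroxisomal kappa enzyme, stood at 82.7, 94.1 and 77.8 scaled RPKM in HFD and at 75.0, 179 and 139 in LYC. LYC1 was the lowest of all 6 and the other LYC libraries the highest, and the log2 fold change was 0.53 (SE 0.33, adjusted p = 0.307, limma). Gsto1, which reduces dehydroascorbate, stood at 30.9, 41.5 and 43.6 in HFD and at 24.3, 46.2 and 33.5 in LYC, with a log2 fold change of -0.19 (SE 0.30, adjusted p = 0.714, limma). Gstz1, the maleylacetoacetate isomerase of tyrosine breakdown, stood at 223, 232 and 217 in HFD and at 138, 177 and 191 in LYC. Every LYC library of Gstz1 was lower, yet the log2 fold change was -0.42 (SE 0.22, adjusted p = 0.241, limma).

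**Figure D2:**
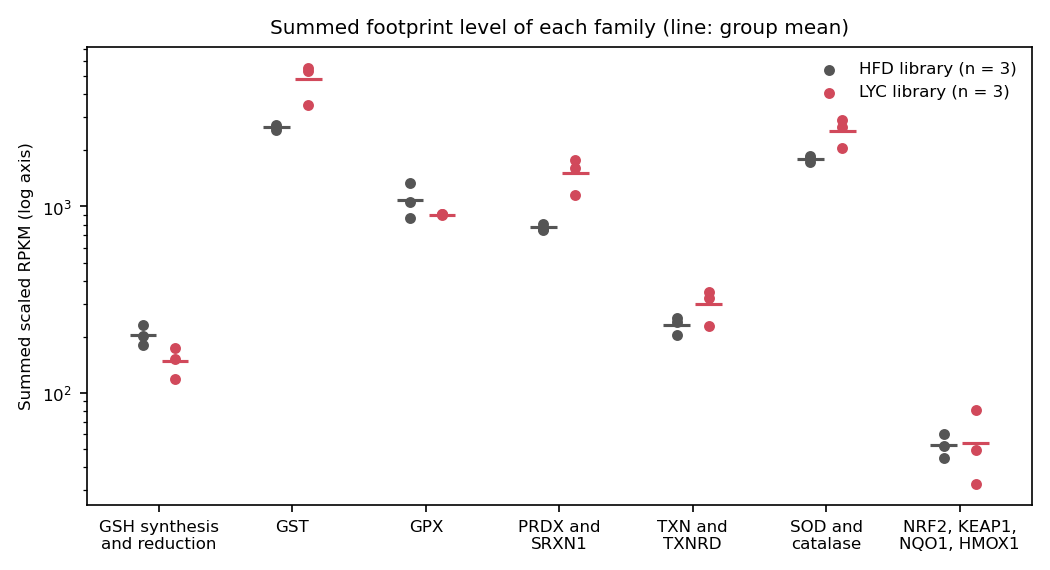
Summed scaled RPKM (log axis) of 7 families in the 3 HFD libraries (grey) and 3 LYC libraries (red), with the mean of each group as a line. Transferases (GST), peroxiredoxins with sulfiredoxin, and superoxide dismutases with catalase lie higher in all LYC libraries, and glutathione (GSH) synthesis and reduction lower.

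The peroxiredoxins had the higher sum in LYC, and most of it was Prdx1. The summed level of Prdx1 to Prdx6 was 800, 734 and 753 scaled RPKM in HFD and 1607, 1766 and 1151 in LYC, 1.98-fold higher (exact permutation p = 0.1). Their share of RPKM did not overlap either, at 0.193%, 0.221% and 0.196% in HFD and 0.26%, 0.358% and 0.242% in LYC (exact permutation p = 0.1). All 6 genes were tested, 1 rose and none fell, and this 16.7% is close to the 13.4% called of all genes tested. Prdx1 (chr4:116685544-116700822, plus strand), the abundant cytosolic peroxiredoxin, stood at 415, 412 and 418 in HFD and at 1124, 1238 and 749 in LYC. The HFD libraries were almost level, and the lowest LYC library was still far above them. Prdx1 had a log2 fold change of 1.29 (SE 0.26, adjusted p = 0.0179, limma). Prdx1 shares 73% of its 28-base windows with other genes, 57% with Gm21399.

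Among the other peroxiredoxins, Prdx6, which can also act as a phospholipase, was higher in every LYC library with a log2 fold change of 0.65 (SE 0.21, adjusted p = 0.0791, limma). Prdx4 of the endoplasmic reticulum and Prdx2, which is plentiful in red cells, had log2 fold changes of 0.86 and 0.65 and overlapped. Prdx3 of the mitochondrion and Prdx5 were at -0.08 and 0.02.

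Srxn1, the sulfiredoxin that repairs overoxidised peroxiredoxin, lay the other way. It stood at 7.02, 12.6 and 7.47 scaled RPKM in HFD and at 1.13, 1.14 and 6.55 in LYC, from 1, 1 and 7 LYC reads. LYC1 and LYC2 were far below HFD and LYC3 was close to it. The log2 fold change of -1.58 (SE 0.53, adjusted p = 0.0869, limma) was not called. It was called at -2.21 without LYC3 and at -1.80 without TMM, but not at -1.28 without LYC1, at -1.27 without LYC2 or in the other 10 fits, among them -0.87 with 5 added in place of 1. The pooled reads gave a LYC to HFD ratio of 0.305, with an exact counting interval of 0.138 to 0.587 at 95%.

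Of the 8 glutathione peroxidases 7 had a read and 2 were tested. Their summed level overlapped between the groups (exact permutation p = 0.4), whereas their share of RPKM was lower in every LYC library, at 0.209%, 0.318% and 0.348% in HFD and 0.145%, 0.185% and 0.19% in LYC (exact permutation p = 0.1). Gpx1, the cytosolic enzyme and by far the most abundant, stood at 650, 795 and 1091 scaled RPKM in HFD and at 794, 739 and 821 in LYC. The LYC libraries lay inside the HFD range, and the log2 fold change was -0.08 (SE 0.26, adjusted p = 0.878, limma). Gpx4 (chr10:80047166-80056439, plus strand), which reduces lipid hydroperoxides within membranes and protects against ferroptosis, stood at 211, 258 and 244 in HFD and at 101, 162 and 86.8 in LYC. Every LYC library was lower. Its log2 fold change was -1.07 (SE 0.28, adjusted p = 0.0418, limma). Gpx4 was not called without HFD2 (-1.03), HFD3 (-1.08), LYC1 (-0.98) or LYC3 (-0.90), and p missed its limit in all 4 of these fits. Gpx4 shares 58.2% of the windows of its longest annotated coding sequence with the pseudogene Gpx4-ps2, so the level may include reads of that copy. The share for shorter forms of Gpx4 was not examined. Gpx3, Gpx5, Gpx6, Gpx7 and Gpx8 had 0 to 21 reads in a library, and the LYC libraries allow no statement on them at this depth.

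Gpx1 to Gpx4 and the 3 thioredoxin reductases are selenoproteins, in which the ribosome reads an in-frame TGA as selenocysteine instead of a stop. A search of the longest annotated coding sequence of each gene found such a codon in those 7 genes and in none of the other 47. These longest sequences need not be the forms that liver makes, and shorter forms were not examined. In the longest sequences the codon lies early in Gpx1, near the middle of Gpx4 and next to last in the reductases. It is printed in capitals with the bases around it, from GRCm38: Gpx1 codon 47 of 201 at chr9:108339451-108339453 (plus strand), Gpx4 codon 129 of 253 at chr10:80054737-80054739 (plus strand) and Txnrd1 codon 612 of 613 at chr10:82896037-82896039 (plus strand).
Gpx1: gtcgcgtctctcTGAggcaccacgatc
Gpx4: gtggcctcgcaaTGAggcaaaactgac
Txnrd1: cagtctggctgcTGAggt
Values per gene cannot separate footprints before and after this codon. Among the 4 tested genes that carry it 1 was called, Gpx4 (25%), beside 17.6% of the 34 without it and 13.4% of all genes tested. Genes with the codon had a median of 0.04 on the log2 scale and those without it 0.27, where all genes tested had -0.10.

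The thioredoxin system overlapped between the groups in all 4 genes tested, where 37.8% of all genes tested did not overlap. Txn1, the cytosolic thioredoxin, stood at 147, 97.0 and 129 scaled RPKM in HFD and at 226, 198 and 97.7 in LYC. As with Gstp1, LYC3 lay among the HFD libraries. On the log2 scale Txn1 differed by 0.42 (SE 0.35, adjusted p = 0.451, limma). Txnrd1, its cytosolic reductase, stood at 30.1, 33.4 and 31.4 in HFD and at 40.8, 34.6 and 31.6 in LYC, with a log2 fold change of 0.16 (SE 0.24, adjusted p = 0.68, limma). The mitochondrial partners Txn2 and Txnrd2 were at 0.13 and 0.18.

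The superoxide dismutases and catalase did not overlap between the groups in any of the 4 genes, beside 37.8% of all genes tested, and 1 of them was called, Sod3 (25%, beside 13.4%), which passed the read filter only through HFD. Of the 3 others none was called. Their summed share of RPKM did overlap, at 0.44%, 0.518% and 0.483% in HFD and 0.471%, 0.54% and 0.434% in LYC (exact permutation p = 1). Sod3 (chr5:52363791-52371418, plus strand), the secreted dismutase, stood at 18.5, 7.74 and 12.6 scaled RPKM in HFD and at 3.10, 3.13 and 1.29 in LYC. The lowest HFD library lay well above the highest LYC library, but only 2, 2 and 1 reads lie behind the LYC values, and the gene passed the read filter only through HFD. On the log2 scale Sod3 differed by -1.97 (SE 0.41, adjusted p = 0.0204, limma). From the pooled 217 and 5 reads the LYC to HFD ratio was 0.211, with an exact counting interval of 0.068 to 0.501 at 95%. None of its 28-base windows occurs in another gene.

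Sod1, the cytosolic copper-zinc enzyme, stood at 756, 664 and 782 scaled RPKM in HFD and at 1543, 1264 and 934 in LYC. Each LYC library was higher, but the log2 fold change of 0.74 (SE 0.26, adjusted p = 0.106, limma) was not called. With the trend on gene length removed the change of Sod1 was 0.22. Of its 28-base windows 54.7% are shared with other genes, 52.6% with Gm8566. Cat, the catalase of peroxisomes, stood at 1003, 1009 and 1018 in HFD and at 1305, 1335 and 1085 in LYC, also without overlap, and its log2 fold change was 0.29 (SE 0.23, adjusted p = 0.424, limma). Sod2, the mitochondrial manganese enzyme, had 0.27 (SE 0.22, adjusted p = 0.443, limma).

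Glutathione synthesis and reduction had the lower sum in LYC, and most of the drop was Gclc. The mean sum was 205 scaled RPKM in HFD and 148 in LYC, of which Gclc gave 104 and 54.2. The summed level of Gclc, Gclm, Gss and Gsr was 181, 202 and 231 scaled RPKM in HFD and 174, 151 and 119 in LYC, 0.724-fold (exact permutation p = 0.1). As a share of RPKM it was also lower in every LYC library, at 0.0437%, 0.0607% and 0.0601% in HFD and 0.0282%, 0.0307% and 0.025% in LYC (exact permutation p = 0.1). None of the 4 was called. Gclc, the catalytic subunit of the rate-limiting ligase, stood at 92.0, 102 and 117 in HFD and at 69.9, 49.3 and 43.5 in LYC. All LYC libraries were lower, and the log2 fold change of -0.95 (SE 0.26, adjusted p = 0.0482, limma) came just short of the limit on fold. Leaving out 1 library gave -0.82 (without LYC3) to -1.14 (without LYC1), with a call only in the latter. It was also called without TMM (-1.23) and without the read filter (-1.10), and was -0.86 and not called with the trend on gene length removed.

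Gclm, the modifier subunit of the same ligase, stood at 57.2, 64.3 and 67.0 scaled RPKM in HFD and at 49.0, 57.1 and 49.5 in LYC, with a log2 fold change of -0.27 (SE 0.22, adjusted p = 0.442, limma). The groups only just did not overlap. Gss, glutathione synthetase, stood at 17.3, 17.3 and 24.4 in HFD and at 16.2, 29.3 and 9.39 in LYC, with a log2 fold change of -0.22 (SE 0.40, adjusted p = 0.755, limma). Gsr, glutathione reductase, stood at 14.4, 17.8 and 22.7 in HFD and at 39.2, 15.5 and 16.8 in LYC. Only LYC1 of Gsr was high, and the log2 fold change was 0.26 (SE 0.39, adjusted p = 0.685, limma).

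**Figure D3:**
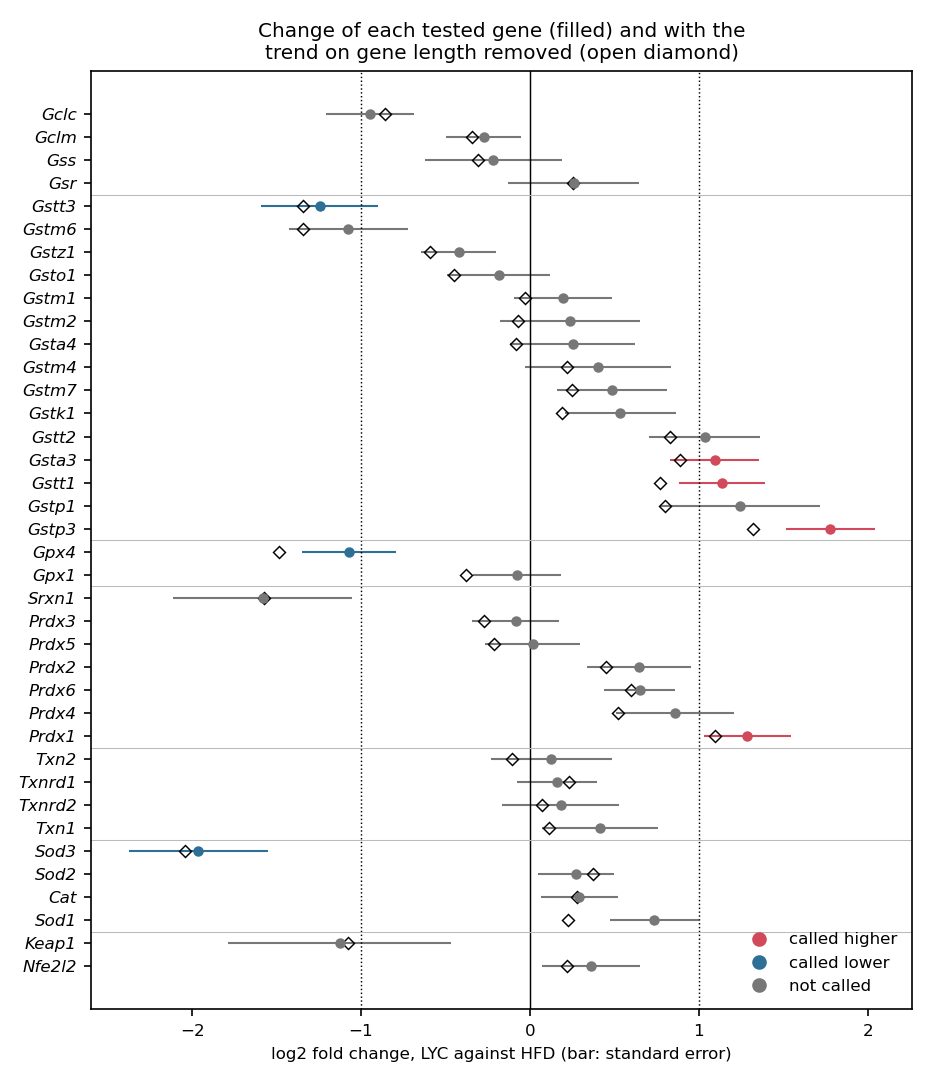
Log2 fold change of LYC against HFD for the 38 tested genes with its standard error (filled points, red for called higher, blue for called lower, grey for not called) and after each library's trend on gene length was removed (open diamonds); dotted lines mark a log2 fold change of -1 and 1. Most diamonds lie left of their point, and the median moves from 0.25 to 0.09.

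Of Nfe2l2, Keap1, Nqo1 and Hmox1 only the first pair were tested, and neither was called. Nfe2l2 stood at 25.7, 30.6 and 20.2 scaled RPKM in HFD and at 27.4, 43.4 and 29.2 in LYC. The groups overlapped, and the log2 fold change was 0.36 (SE 0.29, adjusted p = 0.431, limma). Keap1 stood at 12.8, 16.7 and 12.2 in HFD and at 1.01, 11.2 and 11.7 in LYC. It was lower in every LYC library but far lower only in LYC1, which had 1 read. Its log2 fold change was -1.13 (SE 0.66, adjusted p = 0.286, limma), and -0.24 without LYC1.

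The 2 classical target genes were too low to test. Nqo1, a quinone reductase, stood at 3.86, 4.05 and 3.01 scaled RPKM in HFD and at 0, 4.12 and 3.39 in LYC, with 0, 2 and 2 LYC reads. Hmox1, the inducible heme oxygenase, stood at 9.62, 8.56 and 9.63 in HFD and at 4.03, 22.3 and 5.01 in LYC, with 2, 11 and 3 LYC reads. Both overlapped, and 3 reads of Nqo1 would give 5.09 to 6.18 scaled RPKM in a LYC library, more than its level in HFD.

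NRF2 binds the antioxidant response element, whose core is TGACNNNGC. RefSeq promoter windows (GRCm38.p6, from 250 bases before to 50 after a gene's start) were found for 47 of the 54 genes. The core was searched on both strands and occurred in 9 of the 47 (19.1%), beside 3781 of 27025 genes (14%). The 9 were Gclm, Gsta3, Gstm5, Gstm7, Nfe2l2, Prdx1, Sod1, Srxn1 and Txnrd1. Gsta3 and Prdx1 of the 4 genes that rose carry it, as does Gclm, which was not called. These 3 are shown on the plus strand with the match in capitals: Gsta3 at chr1:21240454-21240482, Prdx1 at chr4:116685456-116685484 and Gclm at chr3:122245413-122245441, where in the last pair the core is read on the other strand.
Gsta3: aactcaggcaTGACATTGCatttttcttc
Prdx1: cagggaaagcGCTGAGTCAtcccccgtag
Gclm: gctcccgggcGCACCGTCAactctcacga
A match describes the letters and is no proof of a binding site, and the genes that carry it lay on both sides of 0, from Prdx1 at 1.29 to Srxn1 at -1.58. Sequence outside the promoter windows was not searched, so a gene without a match may carry the core elsewhere.

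Genes near the pathway were counted from lists by role, beside the median of -0.10 over all genes tested. Of 22 tested further NRF2 targets 2 rose and 1 fell (13.6%, beside 13.4% of all genes tested), with a median log2 fold change of 0.38. Fth1, the heavy chain of the iron store ferritin, stood at 366, 400 and 375 scaled RPKM in HFD and at 854, 1021 and 1148 in LYC (log2 fold change 1.39, SE 0.23, adjusted p = 0.0079, limma). Akr1c14, a steroid dehydrogenase, had 1.14 (SE 0.28, adjusted p = 0.0331, limma), and Osgin1, an oxidative stress response gene, had -2.31 (SE 0.63, adjusted p = 0.0484, limma). Of 10 tested regulators of NRF2 none rose and 2 fell (20%), and the median was -0.24. The 2 were Bach2, a repressor that competes for NRF2 sites, at -1.53 (adjusted p = 0.0227, limma) with 0, 0 and 2 LYC reads and a pass of the read filter only through HFD, and Syvn1, an E3 ligase that can degrade NRF2, at -1.97 (adjusted p = 0.0282, limma) with 6, 7 and 7. Without Bach2, a count also added after seeing the data, 1 of 9 regulators fell (11.1%), beside the 10.1% of genes that reached the filter in both groups, and the median was -0.16.

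Of 14 tested genes of glutathione turnover and supply (median 0.34) 1 rose (7.14%, beside 13.4% of all genes tested), Gnmt, the abundant liver methyltransferase for glycine, from 475, 525 and 537 scaled RPKM in HFD to 1009, 1276 and 1057 in LYC (log2 fold change 1.11, SE 0.23, adjusted p = 0.0187, limma). Of 19 tested thiol redox partners (median 0.14) 1 rose (5.26%, beside the same 13.4%), Glrx3, a glutaredoxin that handles iron-sulfur clusters, with 1.51 (SE 0.32, adjusted p = 0.0204, limma). Neither of 2 tested transferases from outside the symbol families was called.

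The summed level of all 54 genes was 6640, 6554 and 7223 scaled RPKM in HFD and 11477, 11242 and 8051 in LYC. Every LYC library was higher, LYC3 by the least. The sum was 1.51-fold higher in LYC (exact permutation p = 0.1). As a share of all RPKM without small non-coding RNA, however, it was 1.61%, 1.97% and 1.88% in HFD and 1.86%, 2.28% and 1.69% in LYC, and the groups overlapped (exact permutation p = 0.7). The rise in level thus depends on the scaling. LYC3 was the lowest LYC library in 17 of the 38 tested genes, LYC1 in 15 and LYC2 in 6. Of the 25 with a log2 fold change above 0, LYC3 was lowest in 12, LYC1 in 8 and LYC2 in 5.

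With library totals in place of the TMM factor the median of all genes tested moved from -0.10 to -0.36, and that of the 38 from 0.25 to -0.03. Gstp3 and Prdx1 then rose and Sod3, Gstt3, Gpx4, Gclc, Gstm6 and Srxn1 fell, while Gsta3 and Gstt1 were not called. Prdx1 only just passed, at a log2 fold change that rounds to 1. Of all 5738 genes 236 rose and 651 fell on this scaling, so calls leaned to lower in general. The log2 fold changes of all 38 moved down together, and genes near 0, such as Gstm1 and Txnrd1, came to lie below it. Relative to all genes the median of the antioxidant genes stayed 0.35 and 0.33 higher.

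The antioxidant genes are short, with a median length of 1390 bases in those tested, beside 3085 over all genes tested. When each library's trend on gene length was removed, 2 rose (Gstp3 and Prdx1) and 4 fell (Sod3, Gstt3, Gpx4 and Gstm6) of the 38, beside 12.3% called of all genes tested. Gstt1 and Gsta3 were then at 0.77 and 0.89 and were not called. The median of the 38 was 0.09 on that scale, beside -0.07 for all genes.

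Markers of other cells were compared with the same scaling. Periportal hepatocyte markers summed to 2753 to 3275 scaled RPKM in HFD and 3509 to 6084 in LYC, without overlap (exact permutation p = 0.1). All 10 were tested, 6 had a log2 fold change above 0 (median 0.25), and Pck1 and Sds were called higher (20%, beside 13.4% of all genes tested). Pericentral markers summed to 3638 to 4118 in HFD and 3545 to 5442 in LYC and overlapped. Of 8 tested, 6 were above 0 (median 0.20) and 1, Cyp1a2, was called lower (12.5%). Of the 8 general hepatocyte markers, 4 were above 0 (median 0.13) and Tat and Cps1 were called higher (25%). Lymphocyte and neutrophil markers lay at 6.81 to 8.18 in HFD and 23.3 to 29.3 in LYC, from 7 to 11 LYC reads. Kupffer cell, endothelial, stellate and bile duct markers overlapped. The part of these differences in the antioxidant values was not tested.

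The authors also deposited a table of counts from libraries labelled mRNA. Each of its libraries was most like 1 footprint library (r = 0.928 to 0.958 across genes, which are not independent), LYC1, LYC2 and LYC3 like those of the same name, but HFD1, HFD2 and HFD3 like the footprint libraries HFD2, HFD3 and HFD1. In those pairs the median count was 1.00 to 1.03 times the recovered reads, and 69.4% to 82.3% of genes of at least 20 reads lay within 5%. The tables are not the same throughout, since the LYC totals were 673832, 582184 and 687242 counts beside 394461, 311049 and 412116 reads. The second table is therefore not taken as an independent measure of mRNA, and no ratio of footprints to mRNA is given. The likeness does not tell which table is mislabelled, if either is, so the identity of the footprint table was taken from its labels and not tested. On its counts edgeR's quasi-likelihood test called 5 genes higher and 3 lower of 40 tested, beside 16.6% of all genes tested, among them Gstp1 and Gstp2 higher.

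The tables differ for copies. The pair Gstp1 and Gstp2 had 1974 footprint reads in HFD1, of which 4 were given to Gstp2, and 2021 counts in its partner, of which 696 were. In LYC1 the pair had 622 reads with 0 on Gstp2, and 624 counts with 262 on Gstp2. The sum is thus nearly equal while the split differs. Gstm3 had 156 reads in HFD2 and 893 counts in its partner, and Gsta1 and Gsta2 together 13 and 163. The levels of Gstp2, Gstm3, Gsta1 and Gsta2 thus differ between the tables, and for Gsta1 with Gsta2 the sum differs too. The cause was not tested. Gstp3 had 7, 9 and 12 reads but 7, 5 and 9 counts in LYC. Gstp3 did not pass the read filter of the second table. In the edgeR fit without that filter its log2 fold change was 1.58 (adjusted p = 0.0693), and it met the limits of a call.

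**Figure D4:**
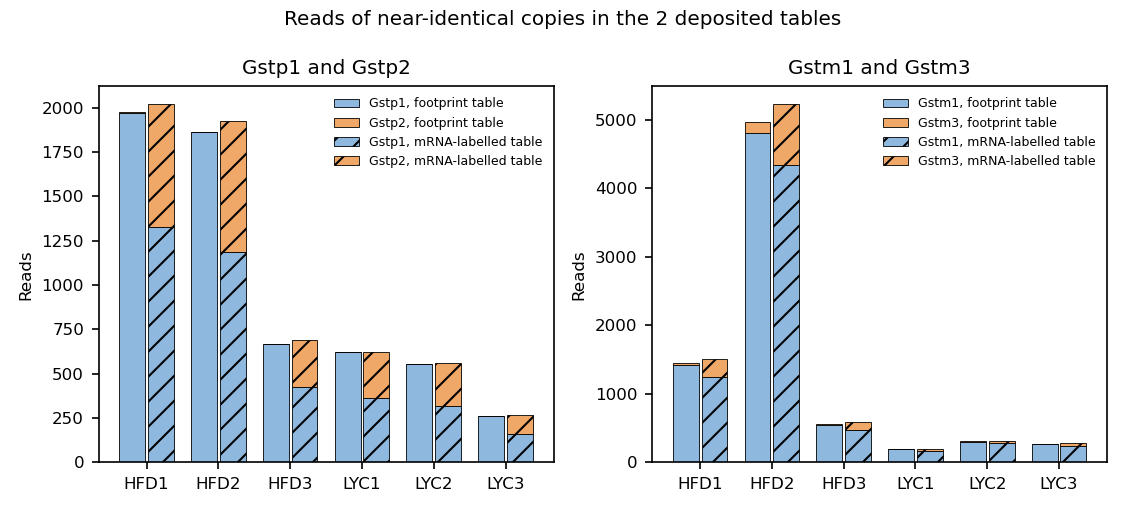
Reads per footprint library (plain bars) and counts in the matching library of the mRNA-labelled table (hatched bars) for Gstp1 with Gstp2 and for Gstm1 with Gstm3, stacked. The bar pairs are of nearly equal height, while Gstp2 takes 696 of 2021 counts in the partner of HFD1 and 4 of 1974 reads.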

How the data were processed

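Liver Ribo-seq (3 HFD and 3 LYC libraries) and the libraries labelled mRNA were used. Per the labels the authors used cutadapt and Bowtie2 and the mm10 build. The paper adds STAR and FANSE2. Versions are not given in the sources used here. The authors deposited RPKM values for both kinds of library, and counts for those labelled mRNA; the latter RPKM served only to read off gene lengths. Of 25033 entries 26 had names turned into dates and 4 shared a name and were left out. Whole reads were recovered with the length of the second table for 11128 of 15749 genes above 0 and with a fitted length for nearly all others; the table's length gave whole reads (within 0.02 of a read) for 71.9% to 72.4% of values.

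RPKM / TMM factor + 1 was log2 transformed and tested with limma 3.58.1 (mean-variance trend) over genes kept by filterByExpr of edgeR 4.0.16. R 4.3.3, DESeq2 1.42.0, scipy 1.17.1, pandas 2.3.3, numpy 2.4.6, matplotlib 3.10.9 and Python 3.11.15 were also used. The scripts were tested on simulated data. Coordinates and coding sequences come from GENCODE on GRCm38. Per-library values are named for called genes, the most abundant of each family and the single genes of the symbol rule. Of the called genes of the other lists, Fth1 and Gnmt have per-library levels here. The members and lists were chosen with earlier results of these data known. Alternatives were other scalings, pseudocounts, filters, tests, thresholds, a replicate block, a length correction and leaving out each library. The result of 1 marker list is not reported here.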

Additional observations from a re-analysis of the deposited data

How the results depend on the processing

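The count of called antioxidant genes (7, 4 higher and 3 lower) lay between 6 and 9 under the other scalings, pseudocounts, tests, the length correction and no filter. In those fits 7.84% to 15.7% of all genes tested were called. With the fold limit kept and an adjusted p below 0.05 the count was 6, 4 higher and 2 lower. Over all 5738 genes 353 were then higher and 287 lower. At p below 0.001 it was 2, both higher, beside 193 higher and 102 lower over all genes. The balance turned to 2 higher and 7 lower of 52 without the filter (17.3%, beside 7.84% of 15749 genes, 356 higher and 878 lower), and to 2 and 6 without TMM. Leaving out 1 library gave 4 (without HFD3) to 8 (without LYC2), and the calls over all genes moved as well, from 767 to 413 (8.55%, beside 11.4% of the antioxidant genes) without HFD3, 949 (13.2%, beside 20%) without LYC2 and 1280 (17.7%, beside 17.5%) without LYC3. Gstp3 and Prdx1 were called in all 6 fits without a library and in all 11 other fits. Without TMM Prdx1 only just passed the limit on fold, at a log2 fold change that rounds to 1. Sod3 was called in all 11 other fits and in 4 without a library, but it was not tested without HFD1 or HFD3. Counting only genes that reached the read filter in both groups, chosen after seeing the data, 3 rose and 2 fell of 36, without Gstp3 and Sod3, and the median was 0.25. Gpx4 and Gstt3 were called in 2 of 6 and 11 of 11, Gstt1 in 5 of 6 and 7 of 11, Gsta3 in 4 of 6 and 7 of 11. Gstt1 and Gsta3 were lost without TMM, without the filter and with the length trend removed. The median log2 fold change of the tested genes (0.25) was -0.0322 without TMM, 0.0468 without the filter, where 52 genes were tested, and 0.0916 with the length trend removed, with or without the replicate block. Leaving out 1 library gave 0.15 to 0.27. The log2 ratio of the summed level (0.59) was 0.30 without TMM and 0.50 to 0.74 without 1 library. In the mRNA-labelled libraries 8 genes were called, beside 985 of 5921 genes (16.6%). Leaving out 1 of these libraries gave 5 (without their HFD1 or LYC1) to 9 (without their HFD3). The calls over all genes moved as well. They were 453 higher and 318 lower without HFD1, 514 and 372 without LYC1, and 501 and 342 without HFD3. Without LYC3 they were 691 and 577, where 6 antioxidant genes were called. Without TMM all 38 log2 fold changes moved down, so the sign turned for 9 genes near 0, among them Gsr (-0.0156), Gstm1 (-0.0901) and Txnrd1 (-0.12), and for 5 with the length trend removed, among them Gstm1, blocked or not (-0.0293). Leaving out 1 library turned the sign of further uncalled genes, among them Gsta4, Gstm2, Prdx3, Prdx5, Txn2 and Txnrd2, and moved Gpx1 from -0.26 to 0.10 (without HFD3), Gsr from -0.14 (without LYC1) to 0.50, Gss from -0.60 to 0.15 (without LYC3), Gsto1 from -0.40 to 0.0466 (without LYC1) and Gstm1 from -0.00999 (without HFD1) to 0.38. The cause of these shifts was not tested. The labels tie no replicate number to an animal or batch shared by both groups, and the deviations of same-numbered libraries correlated at 0.106, 0.0265 and 0.00357, so the numbers do not pair the libraries. With the replicate block 4 genes rose and 3 fell, beside 13% called of all genes tested, and the median was 0.25. In the mRNA-labelled libraries 5 rose and 2 fell with such a block, beside 486 higher and 373 lower over all genes. The 3 LYC libraries limit what can be said of genes under about 3 reads in LYC.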
